A study of Rattus norvegicus with 9 samples.

Results

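The genes of clot formation and clot removal described here are the 3 fibrinogen chain genes (Fga, Fgb and Fgg), the plasminogen activator genes Plat and Plau, the urokinase receptor gene Plaur, the tissue factor gene F3 and the thrombomodulin gene Thbd. They were taken by symbol from a table of 36267 gene features measured by RNA sequencing of rat kidney, and all 8 were found. The study compared 3 groups of 3 rats each, 1 library per rat, of rats weighing 180 to 200 g. Rats of the CIAKI+icariin group were given icariin, a flavonoid glycoside of Epimedium plants, at 100 mg/kg into the stomach on each of 3 days and then went through the injury protocol. Rats of the CIAKI group (contrast-induced acute kidney injury) went through the injury protocol alone: the loop diuretic furosemide at 200 mg/kg into the stomach, 6 h of dehydration, and iopromide, an iodinated X-ray contrast medium with 370 mg I/mL, at 15 mL/kg into the tail vein. Control rats were untreated, so diuretic, dehydration and contrast medium differ together between CIAKI and control kidneys. There was no group with icariin alone. The sources used here do not give strain, sex or the time between contrast medium and removal of the kidneys.

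Fibrinogen is a plasma protein made of paired Aα, Bβ and γ chains, encoded by Fga, Fgb and Fgg. Thrombin, formed once tissue factor starts coagulation, turns it into fibrin, while thrombin bound to thrombomodulin activates protein C and so slows coagulation. Tissue-type and urokinase-type plasminogen activator (Plat and Plau) turn plasminogen into plasmin, which dissolves fibrin, and the urokinase receptor (Plaur) holds urokinase at the cell surface. The liver makes most plasma fibrinogen and raises its output in response to interleukin 6, and renal tubular cells have been described to express fibrinogen chains after injury in rodents. Urokinase is made by renal tubules and is found in urine.

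The fibrinogen genes lie side by side in the rat genome, in the order Fgg, Fga, Fgb along chromosome 2 of the RefSeq annotation of GRCr8. Their promoters are shown because CTGGGA is known as the core of an interleukin 6 response element of rat fibrinogen genes. The sequences are from RefSeq on GRCr8, at chr2:170671919-170672218 (plus strand) for Fga, chr2:170700826-170701125 (minus strand) for Fgb and chr2:170652833-170653132 (plus strand) for Fgg. Each runs 5′ to 3′ along the gene, from 250 bases before to 50 bases after the start, and capitals mark CTGGGA or its reverse complement TCCCAG.
Fga: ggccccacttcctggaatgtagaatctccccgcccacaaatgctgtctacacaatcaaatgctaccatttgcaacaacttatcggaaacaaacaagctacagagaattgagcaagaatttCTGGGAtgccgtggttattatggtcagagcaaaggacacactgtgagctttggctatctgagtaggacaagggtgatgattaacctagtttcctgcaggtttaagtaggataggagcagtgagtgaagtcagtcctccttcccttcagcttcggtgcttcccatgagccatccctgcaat
Fgb: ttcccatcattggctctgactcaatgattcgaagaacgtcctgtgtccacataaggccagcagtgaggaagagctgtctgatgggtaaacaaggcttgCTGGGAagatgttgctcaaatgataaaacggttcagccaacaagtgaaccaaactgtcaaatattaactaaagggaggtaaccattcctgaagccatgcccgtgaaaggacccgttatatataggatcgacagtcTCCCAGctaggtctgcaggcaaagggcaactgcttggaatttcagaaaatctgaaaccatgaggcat
Fgg: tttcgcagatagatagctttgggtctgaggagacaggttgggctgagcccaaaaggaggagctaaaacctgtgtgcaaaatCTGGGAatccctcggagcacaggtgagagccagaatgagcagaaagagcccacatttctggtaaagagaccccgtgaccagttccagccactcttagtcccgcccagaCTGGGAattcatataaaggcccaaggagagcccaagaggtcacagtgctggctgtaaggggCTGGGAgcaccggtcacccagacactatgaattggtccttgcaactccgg

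CTGGGA occurred once in the Fga promoter (first base at -130, counted from the start), at -152 and in reverse at -17 in Fgb, and at -169, -61 and 1 in Fgg. It was also found in reverse at -90 in Plaur. Of 27457 rat promoters of the same length, 30.4% held it on either strand and 0.921% held it at least 3 times. The STAT motif TTCNNNGAA was found in Fga (-242) and Fgb (-223) and is held by 8.68% of promoters. The C/EBP motif TTNNGNAAT was found in reverse at -69 and 22 in Fgb, with 12.1% of promoters holding it. The AP-1 motif TGANTCA (7.33% of promoters) stood at -234 in Fgb and at -83 in Plaur, and the KLF motif CACCC (55.1% of promoters) in Fga, Fgg and Plaur. The NF-kB motif GGGNNTTTC (4.52% of promoters) had no match in the windows of the 5 genes with an entry (Fga, Fgb, Fgg, Plau and Plaur), and Plau held none of these motifs. None of these motifs overlapped CTGGGA in the 3 fibrinogen windows. These are matches of letters within the window only.

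Values are in CPM, reads scaled to a common library total. A value of 1 CPM equalled between 64.4 reads (CIAKI 3, the shallowest library) and 90.4 reads (CIAKI+icariin 3, the deepest). Differences were tested with limma on log2(CPM + 1) over the 16731 features that reached 1 CPM in 3 or more libraries, and a gene was called at an adjusted p below 0.05. Fold changes on this scale understate the change of genes with low values. The CIAKI libraries serve in both main comparisons, CIAKI against control and CIAKI+icariin against CIAKI, which are therefore not independent of each other.

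Kidney identity was clear in all libraries: the 10 proximal tubule markers summed to 21380 to 23130 CPM in CIAKI+icariin, 9032 to 12020 CPM in CIAKI and 21230 to 25290 CPM in control kidneys. In CIAKI against control, 8 of these 10 markers fell, and in CIAKI+icariin against CIAKI 8 rose. In bulk tissue, fewer cells of a type and less RNA per cell cannot be told apart. Havcr1, which encodes the tubular injury marker KIM-1, averaged 2.18 ± 0.717 CPM in CIAKI+icariin, 464 ± 259 CPM in CIAKI and 0.951 ± 0.375 CPM in control kidneys (SD, n = 3 each). The CIAKI 2 library had the highest value of its group for 7 of the 8 genes (Fgb was highest in CIAKI 1), while 29.1% of all tested features were highest there. CIAKI 3 had the lowest value for 7 of the 8 (Fgg was lowest in CIAKI 1), against 33.2% of tested features. CIAKI+icariin 3 had the lowest value of its group for 7 of the 8, all but F3, against 52.6% of tested features.

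In CIAKI kidneys Fga, Fgb, Fgg and Plat were higher than in control kidneys, Plau was lower, and Plaur, F3 and Thbd did not pass the test. These are 4 genes called higher and 1 called lower of 8, where 20.8% of the 16731 tested features were called higher and 20.5% lower. In CIAKI+icariin against CIAKI kidneys, Fga, Fgb, Fgg, Plat and Plaur were lower and none of the 8 was higher, where 20.2% of tested features were called lower and 19.2% higher. One of the genes counted in each of these, Fgg, entered the test only through the CIAKI libraries and so had to differ. In CIAKI+icariin against control kidneys limma called 0 of the 8 (2 at an unadjusted p below 0.05), and edgeR and DESeq2 on whole reads also called 0. There, 0.4% of tested features were called higher and 0.227% lower. The shares of each comparison are also those to set beside the counts of called cell type markers, above and below. The median log2 fold change of the 8 genes was 0.79 in CIAKI against control (-0.0027 over all tested features). It was -0.81 in CIAKI+icariin against CIAKI (0.0173 over all) and -0.08 in CIAKI+icariin against control (-0.00154 over all).

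**Figure D1:**
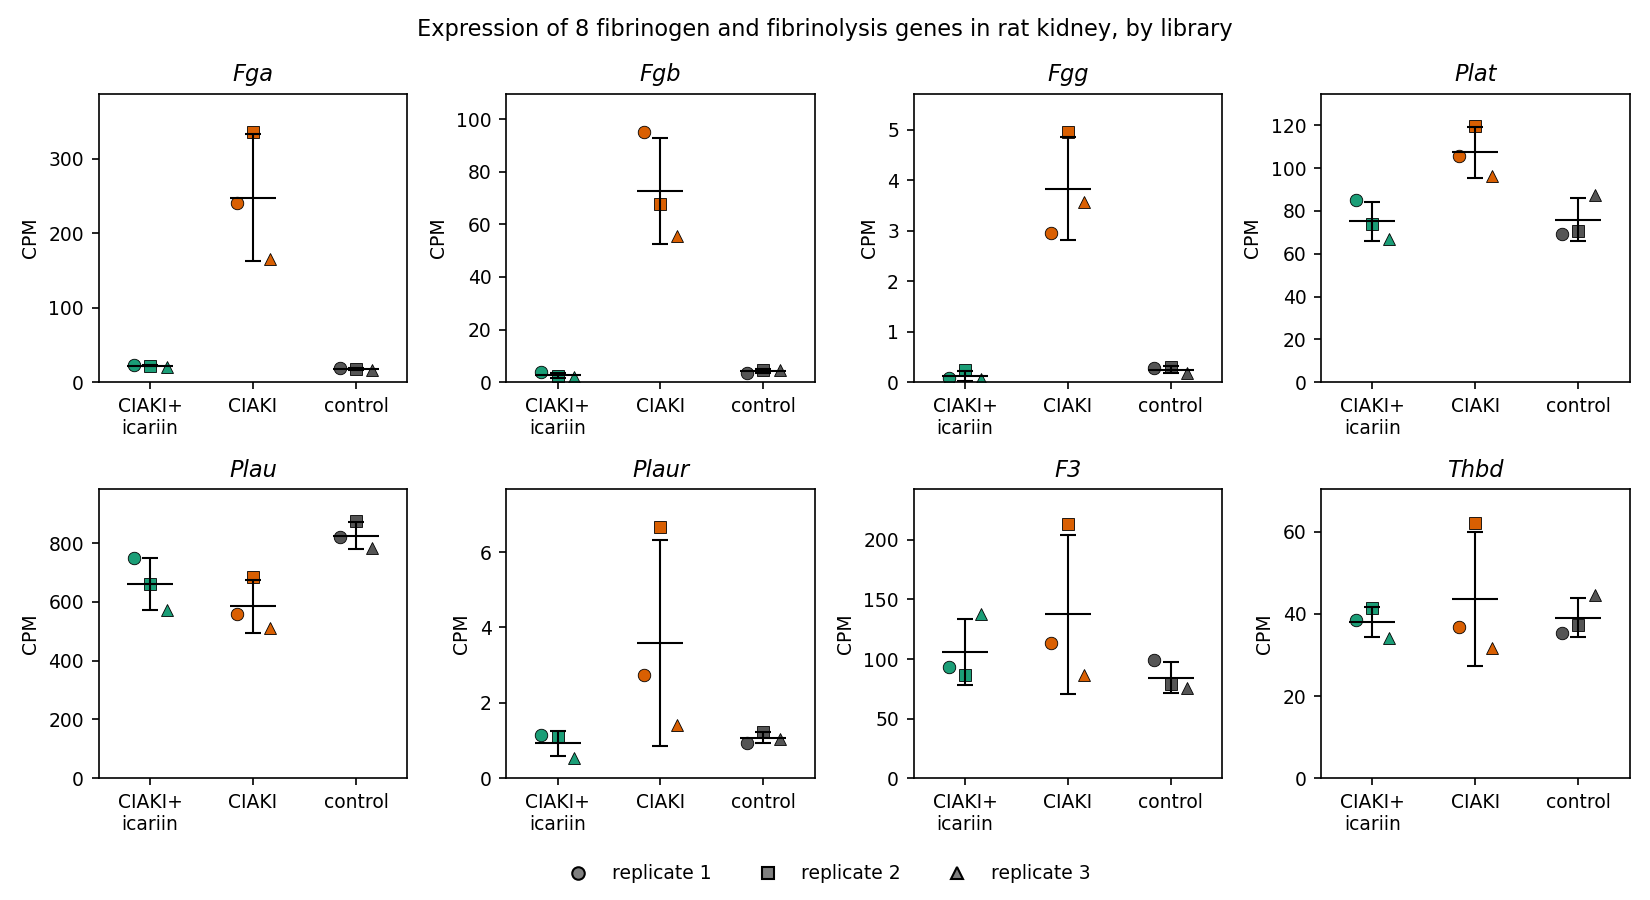
Expression of the 8 genes in CPM (linear axes from 0, a scale of its own per panel) in each library of CIAKI+icariin, CIAKI and control kidneys; the marker shape gives the replicate number, and bars give the mean ± SD of 3 libraries. The CIAKI libraries stand above all others for Fga, Fgb, Fgg, Plat and Plaur and below the control libraries for Plau, while the groups overlap for F3 and Thbd.

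Fga (ENSRNOG00000024848) had 22.5, 22.3 and 21.0 CPM in CIAKI+icariin, 241, 337 and 166 CPM in CIAKI and 18.5, 17.1 and 16.9 CPM in control kidneys. Every CIAKI library was above every other library, and the lowest CIAKI+icariin library was above the highest control library. Fga averaged 248 ± 85.6 CPM in CIAKI and 17.5 ± 0.873 CPM in control kidneys (SD, n = 3 each), 14.2 times as high, with a log2 fold change of 3.69 (SE 0.20) and an adjusted p of 1.57e-05. In CIAKI+icariin kidneys it averaged 21.9 ± 0.811 CPM (SD, n = 3), 0.0885 times the CIAKI mean, with a log2 fold change of -3.38 (SE 0.20) and an adjusted p of 1.99e-05. Against control the CIAKI+icariin mean was 1.25 times as high, which did not pass the test (log2 fold change 0.31, adjusted p = 0.703), although the groups did not overlap.

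Fgb (ENSRNOG00000007092) had 3.68, 2.53 and 1.79 CPM in CIAKI+icariin, 95.1, 67.6 and 55.7 CPM in CIAKI and 3.54, 4.58 and 4.78 CPM in control kidneys. All CIAKI libraries were far above the rest, and CIAKI+icariin and control overlapped. The CIAKI mean of 72.8 ± 20.2 CPM was 16.9 times the control mean of 4.30 ± 0.670 CPM (SD, n = 3 each), with a log2 fold change of 3.77 (SE 0.24) and an adjusted p of 2.29e-05. The CIAKI+icariin mean of 2.67 ± 0.950 CPM was 0.0367 times the CIAKI mean (log2 fold change -4.33, SE 0.24, adjusted p = 1.28e-05). It was 0.62 times the control mean, which did not pass the test (log2 fold change -0.56, adjusted p = 0.461).

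Fgg (ENSRNOG00000025074) rested on few reads outside CIAKI: it had 6, 17 and 5 reads in CIAKI+icariin, 246, 333 and 230 in CIAKI and 20, 21 and 13 in control kidneys. These are 0.0919, 0.241 and 0.0553 CPM in CIAKI+icariin, 2.96, 4.95 and 3.57 CPM in CIAKI and 0.274, 0.302 and 0.172 CPM in control kidneys. The exact 95% Poisson intervals, which cover counting error only, ran from 2.60 CPM upwards in the CIAKI libraries and up to at most 0.461 CPM in the others, so each CIAKI library lay above all 6 others beyond counting error. The mean in CIAKI was 15.4 times that in control, and the mean in CIAKI+icariin was 0.0338 times that in CIAKI. None of the 6 libraries outside CIAKI reached 1 CPM, so Fgg passed the filter through CIAKI alone and its fold changes are a description: 1.93 in CIAKI against control and -2.08 in CIAKI+icariin against CIAKI on log2(CPM + 1). The value depended on the pseudocount, with 0.74 at a pseudocount of 5 and 3.94 by edgeR on whole reads for CIAKI against control.

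By the deposited values per length, the chains were far apart in level. The authors deposited FPKM values, which divide by gene length, for CIAKI+icariin and CIAKI libraries of selected mRNAs, among them the 3 chain genes and Plaur. Fga averaged 6.33 ± 0.156 FPKM in CIAKI+icariin and 69.9 ± 24.4 FPKM in CIAKI kidneys (SD, n = 3 each). Fgb averaged 1.32 ± 0.462 FPKM in CIAKI+icariin and 35.1 ± 8.97 FPKM in CIAKI kidneys, and Fgg 0.0616 ± 0.0481 FPKM in CIAKI+icariin and 1.91 ± 0.534 FPKM in CIAKI kidneys. The order Fga, Fgb, Fgg held in each of the 6 libraries. The gene models behind these values could not be checked here, including whether that of Fgg holds its whole transcript, and the ratios between chains carry that limit. In FPKM, Fga stood at 160, 54.5 and 221 times Fgg in CIAKI+icariin and at 46.3, 38.5 and 26.4 times Fgg in CIAKI kidneys. Fgb stood at 44.9, 10.6 and 32.2 times Fgg in CIAKI+icariin and at 31.3, 13.3 and 15.2 times Fgg in CIAKI kidneys.

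**Figure D2:**
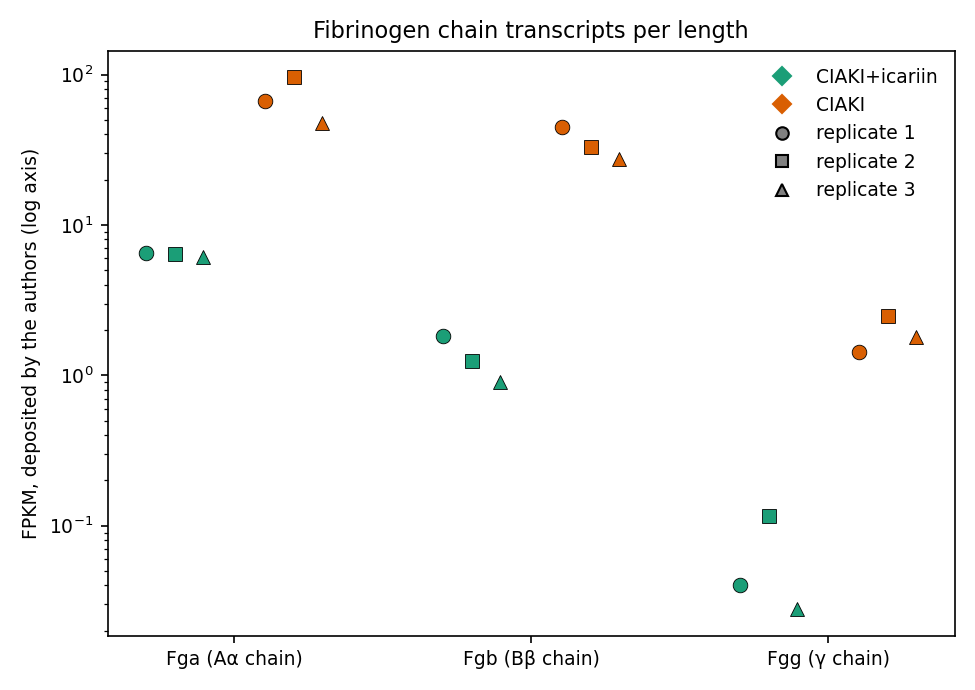
Deposited FPKM (log axis) of the 3 fibrinogen chain genes in CIAKI+icariin and CIAKI libraries; each point is 1 library and the marker shape gives the replicate number. In each library Fga is highest and Fgg lowest, and for each gene the CIAKI libraries stand above the CIAKI+icariin libraries.

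Fga stood higher relative to Fgb in CIAKI+icariin kidneys than in the other groups. The ratio of Fga to Fgb CPM was 6.11, 8.80 and 11.7 in CIAKI+icariin, 2.54, 4.98 and 2.98 in CIAKI and 5.23, 3.74 and 3.53 in control kidneys. All 3 CIAKI+icariin libraries were above all libraries of the other groups. The log2 ratio was higher by 1.36 in CIAKI+icariin than in CIAKI and by 1.06 in CIAKI+icariin than in control (exact permutation test, two-sided, p = 0.1 each, adjusted 0.25 over 15 ratio comparisons). A p of 0.1 is the smallest that 3 against 3 libraries allow. CIAKI and control overlapped in this ratio (log2 difference -0.29, exact permutation p = 0.4). The ratio of Fgb to Fgg overlapped between groups in all 3 comparisons.

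Liver RNA markers were looked at beside the fibrinogen genes. Alb, which encodes albumin, stood at 0 to 0.0425 CPM in CIAKI+icariin, 0 to 0.0777 CPM in CIAKI and 0.101 to 0.493 CPM in control kidneys, and Apoa1, Apoa2, Ttr and Serpina1 stood at no more than 0.505 CPM in any library. The 12 listed hepatocyte markers, 11 of them in the table, summed to 130 to 169 CPM in CIAKI+icariin, 187 to 220 CPM in CIAKI and 126 to 175 CPM in control kidneys. Most of that sum came from Tf and Apob, which kidney also expresses. Of the 4 tested, Tf and Apob rose in CIAKI (log2 fold changes 0.54 and 0.55) and fell in CIAKI+icariin against CIAKI (-0.56 and -0.78). Fgl1, a fibrinogen-like gene of the liver, had no read in any library. Platelet markers, 9 listed and 2 tested, summed to 19.4 to 23.8 CPM in CIAKI+icariin, 12.2 to 17.5 CPM in CIAKI and 16.7 to 21.98 CPM in control kidneys. Most of that sum came from 1 gene, Itga2b, so it says little of the other platelet markers. Pf4, the other tested marker, had 0.490 to 1.61 CPM in CIAKI+icariin, 0.932 to 2.57 CPM in CIAKI and 0.258 to 1.64 CPM in control kidneys. Pf4 entered the test only through CIAKI and was not called (log2 fold change 0.60 in CIAKI against control, adjusted p = 0.189). The summed erythroid markers were also highest in CIAKI, at 494 to 1661 CPM in CIAKI+icariin, 2280 to 2830 CPM in CIAKI and 469 to 1655 CPM in control kidneys. In control 1, 2 and 3 the erythroid sum was 1655, 469 and 486 CPM, and Fga 18.5, 17.1 and 16.9 CPM. In CIAKI 1, 2 and 3 the sum was 2745, 2830 and 2280 CPM, and Fga had the same order (241, 337 and 166 CPM). In CIAKI+icariin 1, 2 and 3 the sum was 494, 1661 and 1462 CPM, and Fga had another order (22.5, 22.3 and 21.0 CPM). Of 10 listed 7 were tested. In CIAKI against control 4 of the 7 tested erythroid markers rose and 1 fell, and in CIAKI+icariin against CIAKI 1 fell. Ahsp, called in both, entered the test only through CIAKI. The part of blood and of the tubular loss in the fibrinogen values was not tested.

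The tested genes beside the fibrinogen cluster had smaller fold changes than Fga and Fgb, and not all in the same direction. Plrg1, the next gene after Fgb in the RefSeq order and a spliceosome component, averaged 37.8 ± 0.881 CPM in CIAKI+icariin, 52.9 ± 4.63 CPM in CIAKI and 39.5 ± 2.495 CPM in control kidneys (SD, n = 3 each). It rose in CIAKI (log2 fold change 0.41, adjusted p = 0.00405) and fell in CIAKI+icariin against CIAKI (-0.47, adjusted p = 0.00228). Lrat, the gene before Fgg and a retinol esterifying enzyme, did not pass in CIAKI against control (0.52, adjusted p = 0.131) and had -1.10 in CIAKI+icariin against CIAKI (adjusted p = 0.00863). Lrat reached 1 CPM in 3 CIAKI libraries and 1 of the others and so entered the test only through CIAKI, where it is high. Sfrp2, further along after Plrg1 in that order, went the other way. It fell in CIAKI (log2 fold change -1.29, adjusted p = 0.00919) and did not pass in CIAKI+icariin against CIAKI (0.69, adjusted p = 0.103). Npy2r and Rbm46, before Lrat, were too low to test. These neighbours were chosen after their values had been seen.

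Plat (ENSRNOG00000019018), the tissue-type activator, had 84.9, 74.1 and 66.7 CPM in CIAKI+icariin, 106, 120 and 96.3 CPM in CIAKI and 69.4, 70.6 and 87.5 CPM in control kidneys. All CIAKI libraries were above all others. Plat averaged 107 ± 11.9 CPM in CIAKI and 75.9 ± 10.1 CPM in control kidneys (SD, n = 3 each), with a log2 fold change of 0.50 (SE 0.12) and an adjusted p of 0.0115. It averaged 75.2 ± 9.14 CPM in CIAKI+icariin kidneys, with a log2 fold change against CIAKI of -0.51 (SE 0.12, adjusted p = 0.0111). Against control it was -0.01 (adjusted p = 0.992).

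Plau (ENSRNOG00000010516), the urokinase gene, had the highest CPM of the 8 genes and went the other way. It had 748, 662 and 572 CPM in CIAKI+icariin, 560.0, 684 and 510 CPM in CIAKI and 819, 874 and 783 CPM in control kidneys. Every control library was above every other library, and CIAKI+icariin and CIAKI overlapped. Plau averaged 585 ± 89.6 CPM in CIAKI and 825 ± 45.9 CPM in control kidneys (SD, n = 3 each), with a log2 fold change of -0.51 (SE 0.13) and an adjusted p of 0.0131. In CIAKI+icariin kidneys it averaged 660.2 ± 88.0 CPM, a difference that did not pass against CIAKI (0.18, adjusted p = 0.307) or against control (-0.33, adjusted p = 0.41). Beside it, proximal tubule markers fell in CIAKI as given above. Collecting duct markers (7 listed, all tested) had 2 called higher, 4 lower in CIAKI against control and 3 higher in CIAKI+icariin against CIAKI. Of the 5 thick ascending limb markers, 2 fell in CIAKI and 2 rose in CIAKI+icariin against CIAKI. The part of these in the Plau values was not tested.

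Within each library, Plau CPM was 8.81, 8.93 and 8.57 times Plat CPM in CIAKI+icariin, 5.30, 5.70 and 5.29 times in CIAKI and 11.8, 12.4 and 8.94 times in control kidneys. The 3 groups did not overlap in this ratio. The log2 ratio was lower by 1.01 in CIAKI than in control, higher by 0.69 in CIAKI+icariin than in CIAKI and lower by 0.32 in CIAKI+icariin than in control. The exact two-sided permutation p was 0.1 for each, the smallest possible here, and 0.25 when adjusted over the 15 ratio comparisons. CPM are not divided by length, so the ratio serves to compare groups and does not give the relative abundance of the transcripts.

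**Figure D3:**
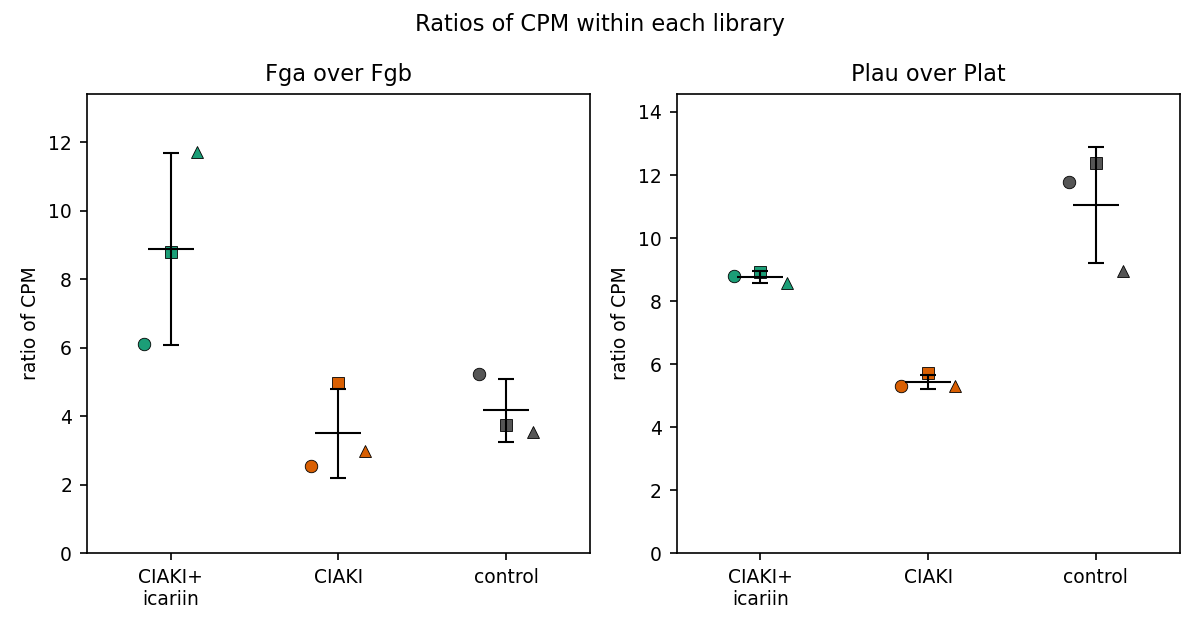
Ratios of CPM within each library, Fga over Fgb (left) and Plau over Plat (right), for CIAKI+icariin, CIAKI and control kidneys; the marker shape gives the replicate number, and bars give the mean ± SD of 3 libraries. The CIAKI+icariin libraries lie at 6.11 to 11.7 for Fga over Fgb, above the rest, and the CIAKI libraries at 5.29 to 5.70 for Plau over Plat, below the rest.

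Plaur (ENSRNOG00000037931), the urokinase receptor gene, was expressed at a low level, with 74, 78 and 49 reads in CIAKI+icariin, 228, 448 and 90 in CIAKI and 69, 86 and 79 in control kidneys. In CPM these are 1.13, 1.10 and 0.542 in CIAKI+icariin, 2.74, 6.66 and 1.40 in CIAKI and 0.945, 1.24 and 1.04 in control kidneys. The CIAKI libraries were above all others but spread over a wide range, and the 95% Poisson interval of CIAKI 3 (1.12 to 1.72 CPM) overlapped that of control 2 (0.988 to 1.52 CPM). The CIAKI mean of 3.60 ± 2.73 CPM against a control mean of 1.08 ± 0.147 CPM (SD, n = 3 each) did not pass the test (log2 fold change 0.98, SE 0.36, adjusted p = 0.0545). It passed in 6 of 20 alternatives, among them edgeR on whole reads (adjusted p = 0.0302) and the fit without CIAKI 3 (adjusted p = 0.0085). In CIAKI+icariin kidneys Plaur averaged 0.927 ± 0.333 CPM, and the log2 fold change against CIAKI was -1.10 (SE 0.36, adjusted p = 0.0372). That call was lost in 11 of 20 alternatives, including without each library in turn other than CIAKI 3 (adjusted p from 0.0515 to 0.109). Without CIAKI 2 the log2 fold changes were 0.53 in CIAKI against control and -0.65 in CIAKI+icariin against CIAKI.

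Plaur is known as a gene of myeloid cells as well as of injured epithelium. Macrophage markers (10 listed, 9 tested) summed to 287 to 358 CPM in CIAKI+icariin, 206 to 297 CPM in CIAKI and 306 to 357 CPM in control kidneys. Of the 9, 3 fell in CIAKI against control (20.5% of all tested features did) and 3 rose in CIAKI+icariin against CIAKI (19.2% of all tested features did). Neutrophil markers (8 listed, 1 tested) summed to 1.08 to 2.61 CPM in CIAKI+icariin, 3.22 to 5.64 CPM in CIAKI and 1.88 to 4.44 CPM in control kidneys, and the tested marker was not called. Lyz2 made up most of the macrophage sum, and Mpo alone had 2.055 CPM in control 1. Of the markers too low to test, Cd163 had 0.901 to 2.45 CPM in CIAKI and at most 0.892 CPM elsewhere. Cxcr2 had 0.48 to 0.95 CPM in CIAKI and at most 0.376 CPM elsewhere. S100a8 was also higher in each CIAKI library than elsewhere, whereas S100a9, Mpo, Elane, Ltf and Fcnb were not. The part of these cells in the Plaur values was not tested.

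F3 (ENSRNOG00000011800), the tissue factor gene, had 93.1, 86.4 and 138 CPM in CIAKI+icariin, 114, 213 and 86.2 CPM in CIAKI and 99.1, 78.7 and 75.5 CPM in control kidneys. The groups overlapped in all 3 comparisons, with the highest value in CIAKI 2. F3 averaged 106 ± 27.9 CPM in CIAKI+icariin, 138 ± 66.8 CPM in CIAKI and 84.4 ± 12.8 CPM in control kidneys (SD, n = 3 each). The log2 fold change was 0.60 in CIAKI against control (SE 0.30, adjusted p = 0.141) and -0.30 in CIAKI+icariin against CIAKI (SE 0.30, adjusted p = 0.457). Without CIAKI 3 the first became 0.88 and passed the test (adjusted p = 0.0385). Without CIAKI 2 it was 0.24, and the difference between CIAKI+icariin and CIAKI turned to 0.06. Contactin 1, for which F3 is also an older symbol, has a row of its own and was not used.

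Thbd (ENSRNOG00000004687), the thrombomodulin gene, had 38.6, 41.4 and 34.2 CPM in CIAKI+icariin, 36.9, 62.2 and 31.8 CPM in CIAKI and 35.5, 37.3 and 44.5 CPM in control kidneys. The groups overlapped, and CIAKI 2 stood above the rest. The log2 fold change was 0.10 in CIAKI against control (SE 0.22, adjusted p = 0.737) and -0.14 in CIAKI+icariin against CIAKI (SE 0.22, adjusted p = 0.642). Without CIAKI 2 both changed sign, to -0.18 and 0.14. Thrombomodulin sits on endothelium, and endothelial markers (12 listed, 11 tested) summed to 682 to 865 CPM in CIAKI+icariin, 573 to 666 CPM in CIAKI and 703 to 751 CPM in control kidneys. In CIAKI against control 4 of the 11 fell and 1 rose, in CIAKI+icariin against CIAKI 4 rose and 1 fell, and in CIAKI+icariin against control 1 was higher. Podocyte markers, which mark another cell of the glomerulus, fell in CIAKI for 8 of 8 and rose in CIAKI+icariin against CIAKI for 6 of 8, and 1 was lower in CIAKI+icariin than in control. Their part in the Thbd values was not tested.

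**Figure D4:**
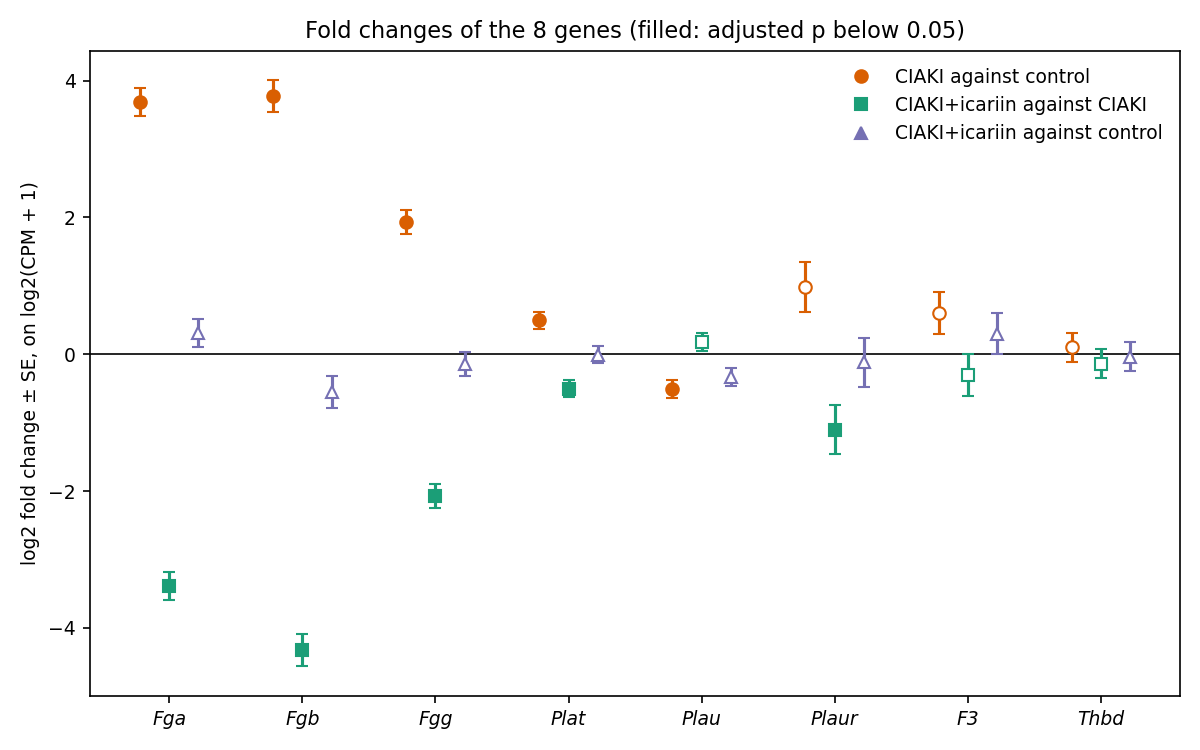
Log2 fold changes ± SE on log2(CPM + 1) of the 8 genes in CIAKI against control, CIAKI+icariin against CIAKI and CIAKI+icariin against control; filled symbols have an adjusted p below 0.05 by limma. Fga and Fgb have the largest changes of the 8, up to 3.77 in CIAKI against control and down to -4.33 in CIAKI+icariin against CIAKI, and no symbol of CIAKI+icariin against control is filled.

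The inhibitors and helpers of plasminogen moved in both directions. Of 13 plasminogen system regulators 12 were in the table and 8 were tested, of which 2 rose and 3 fell in CIAKI against control (median log2 fold change -0.20). With icariin, against CIAKI, 1 rose and 2 fell (median -0.07). For this list and the lists below, the share over all tested features in CIAKI against control was 20.8% called higher and 20.5% lower. In CIAKI+icariin against CIAKI it was 19.2% higher and 20.2% lower. S100a10 and Anxa2, whose products form a cell surface complex that binds plasminogen and its tissue-type activator, rose in CIAKI. S100a10 averaged 26.9 ± 3.06 CPM in CIAKI+icariin, 124 ± 42.2 CPM in CIAKI and 24.5 ± 1.79 CPM in control kidneys (log2 fold change in CIAKI against control 2.25, adjusted p = 9.12e-05), and Anxa2 rose by 1.84 in CIAKI. S100a10 fell by 2.12 and Anxa2 fell by 1.78 on the log2 scale in CIAKI+icariin against CIAKI. Serpinf2, which encodes the plasmin inhibitor α2-antiplasmin, averaged 235 ± 32.0 CPM in CIAKI+icariin, 81.4 ± 5.48 CPM in CIAKI and 253 ± 11.3 CPM in control kidneys. It fell in CIAKI (log2 fold change -1.63, adjusted p = 2.16e-05) and rose in CIAKI+icariin against CIAKI (1.51, adjusted p = 2.72e-05). Serpine2, which encodes protease nexin 1, an inhibitor of thrombin and plasminogen activators, fell in CIAKI (-1.59, adjusted p = 0.00102) and did not pass in CIAKI+icariin against CIAKI (0.62, adjusted p = 0.0659). Plgrkt, which encodes a plasminogen receptor, fell as well in CIAKI. Plg, which encodes plasminogen, had no read in the 6 CIAKI+icariin and CIAKI libraries and 3, 0 and 9 reads in the control libraries. Serpinb2 and Cpb2, which encode PAI-2 and the fibrinolysis inhibitor TAFI, had no read in any library.

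Most called genes of coagulation and its inhibitors fell in CIAKI. Of 16 coagulation cascade factors 15 were in the table and 10 were tested, of which 2 rose and 4 fell in CIAKI against control (median log2 fold change -0.16), and 4 rose and 1 fell in CIAKI+icariin against CIAKI (median 0.26). F13b, which encodes the carrier subunit of factor XIII, fell in CIAKI (-1.13, adjusted p = 0.000293), as did Klkb1, which encodes plasma prekallikrein (-1.07), Vkorc1 of the vitamin K cycle (-0.58) and Vwf (-1.62). The 4 rose in CIAKI+icariin against CIAKI, by 1.02 for F13b, 0.92 for Klkb1, 0.79 for Vkorc1 and 1.25 for Vwf. Kng1, a kininogen gene, rose in CIAKI (2.74, adjusted p = 0.0017) and fell in CIAKI+icariin against CIAKI (-2.78, adjusted p = 0.00179), but rats carry near-identical kininogen genes between which reads may be split. F5 was the other gene that rose in CIAKI. F2, the thrombin gene, was at 8.24 to 16.3 CPM in CIAKI+icariin, 8.55 to 11.3 CPM in CIAKI and 8.89 to 11.2 CPM in control kidneys and was not called.

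Of 10 anticoagulant genes 7 were tested, and in CIAKI against control 5 of them fell and 1 rose (median log2 fold change -0.96). Set against CIAKI, CIAKI+icariin kidneys had 4 higher and 1 lower (median 0.83). Serpinc1, the antithrombin gene, averaged 172 ± 9.72 CPM in CIAKI+icariin, 86.4 ± 8.29 CPM in CIAKI and 194 ± 8.84 CPM in control kidneys (log2 fold change in CIAKI against control -1.16, adjusted p = 4.11e-05). Tfpi, the inhibitor of the tissue factor pathway, and Proz, the protein Z gene, fell in CIAKI by 0.96 and 1.48 on the log2 scale, and so did Proc and Pros1. Procr, which encodes the endothelial protein C receptor, went the other way, with 1.60 ± 0.182 CPM in CIAKI+icariin, 7.50 ± 2.03 CPM in CIAKI and 1.80 ± 0.435 CPM in control kidneys (SD, n = 3 each). Its log2 fold change was 1.59 in CIAKI against control (adjusted p = 0.000409) and -1.68 in CIAKI+icariin against CIAKI (adjusted p = 0.000372).

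Among 4 thrombin receptor genes 2 were tested. F2rl1, which encodes PAR-2, a relative cleaved by trypsin-like proteases and by the tissue factor complex, rose in CIAKI (log2 fold change 1.73, adjusted p = 0.00569) and fell in CIAKI+icariin against CIAKI (-1.46, adjusted p = 0.0131). F2r, the thrombin receptor PAR-1, did not pass in CIAKI against control (0.82, adjusted p = 0.0504) or in CIAKI+icariin against CIAKI (-0.18, adjusted p = 0.653). Of 10 receptors of fibrin and fibrinogen, all tested, 3 rose and 2 fell in CIAKI against control (median -0.16), and 1 rose and 4 fell in CIAKI+icariin against CIAKI (median -0.10). The integrin gene Itgav averaged 235 ± 5.22 CPM in CIAKI+icariin, 382 ± 54.3 CPM in CIAKI and 168 ± 7.23 CPM in control kidneys (1.17 in CIAKI against control, adjusted p = 7.15e-05). Itgb1 and Icam1 rose too, by 0.49 for Itgb1, and Cdh5 and Vldlr, which encode endothelial fibrin receptors, fell by 0.58 and 0.52 on the log2 scale.

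Genes of the interleukin 6 and STAT3 pathway, which drives fibrinogen synthesis in liver, mostly rose in CIAKI. Of 17 listed 14 were tested, of which 9 rose and 1 fell in CIAKI against control (median log2 fold change 0.49), and 1 rose and 10 fell in CIAKI+icariin against CIAKI (median -0.54). Lif, counted among the 9 and the 10, reached 1 CPM in 3 CIAKI libraries and 1 of the others, so it entered the test only through CIAKI, where it is high. Osmr, the oncostatin M receptor gene, averaged 13.3 ± 2.52 CPM in CIAKI+icariin, 88.2 ± 41.1 CPM in CIAKI and 12.7 ± 3.47 CPM in control kidneys (log2 fold change in CIAKI against control 2.64, adjusted p = 0.000259). Stat3 averaged 159 ± 18.1 CPM in CIAKI+icariin, 347 ± 84.8 CPM in CIAKI and 161 ± 0.260 CPM in control kidneys (1.08, adjusted p = 0.000763). Socs3, a feedback inhibitor induced by STAT3, rose by 2.01 in CIAKI (adjusted p = 0.00157) and fell by 1.99 in CIAKI+icariin against CIAKI (adjusted p = 0.00185). Cebpd rose in CIAKI (1.03, adjusted p = 0.00252), whereas Cebpb did not pass there (0.47, adjusted p = 0.453) but fell in CIAKI+icariin against CIAKI (-2.08, adjusted p = 0.00735). Cebpb averaged 3.67 ± 2.40 CPM in CIAKI+icariin and 12.8 ± 5.83 CPM in control kidneys, where control 3 had only 6.04 CPM. These groups did not overlap, but the difference was not called (-1.61, adjusted p = 0.214). The ligand Il6 itself was too low to test, at a mean of 0.0389 CPM in CIAKI+icariin, 0.170 CPM in CIAKI and 0.0906 CPM in control kidneys, and Il11 and Osm were also below the filter. The member that fell in CIAKI was Il11ra1 (-0.68, adjusted p = 0.00159), an interleukin 11 receptor.

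Of 6 listed transcription factors that drive fibrinogen genes in liver 4 were tested, and limma called none of them in any comparison. Hnf4a, a liver and kidney factor, had a log2 fold change of -0.43 in CIAKI against control (adjusted p = 0.1) and of 0.34 in CIAKI+icariin against CIAKI (adjusted p = 0.184). Cebpa stood at -0.24 (adjusted p = 0.493) and -0.10 (adjusted p = 0.797) in the same comparisons. Of 15 other acute phase proteins 13 were in the table and 6 were tested. Of these 3 rose and 0 fell in CIAKI against control, and 1 rose and 3 fell in CIAKI+icariin against CIAKI. Lcn2, Cp and Lbp rose in CIAKI and fell in CIAKI+icariin against CIAKI. Serping1 was not called in CIAKI against control (-0.18, adjusted p = 0.393) and rose in CIAKI+icariin against CIAKI (0.48, adjusted p = 0.0403). Lcn2, which encodes the siderophore-binding protein NGAL, rose in CIAKI by 3.88 and fell in CIAKI+icariin against CIAKI by 3.73. Cp, the ceruloplasmin gene, averaged 98.6 ± 14.0 CPM in CIAKI+icariin, 208 ± 27.1 CPM in CIAKI and 103 ± 4.44 CPM in control kidneys. C3 was not called (-0.82 in CIAKI against control, adjusted p = 0.137), and the liver acute phase genes Orm1 and Hamp had no read in any library. Among 10 genes linked to thrombomodulin transcription by flow or inflammation, 9 tested, 4 rose and 1 fell in CIAKI, and 3 fell in CIAKI+icariin against CIAKI. Klf2, a flow-induced factor that raises thrombomodulin in endothelium, fell in CIAKI (-0.56, adjusted p = 0.0272), while Klf6 rose (1.89, adjusted p = 0.00343) and Klf4 did not pass (0.29, adjusted p = 0.536). In none of these 9 pathway lists was a gene called in CIAKI+icariin against control by limma.

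**Figure D5:**
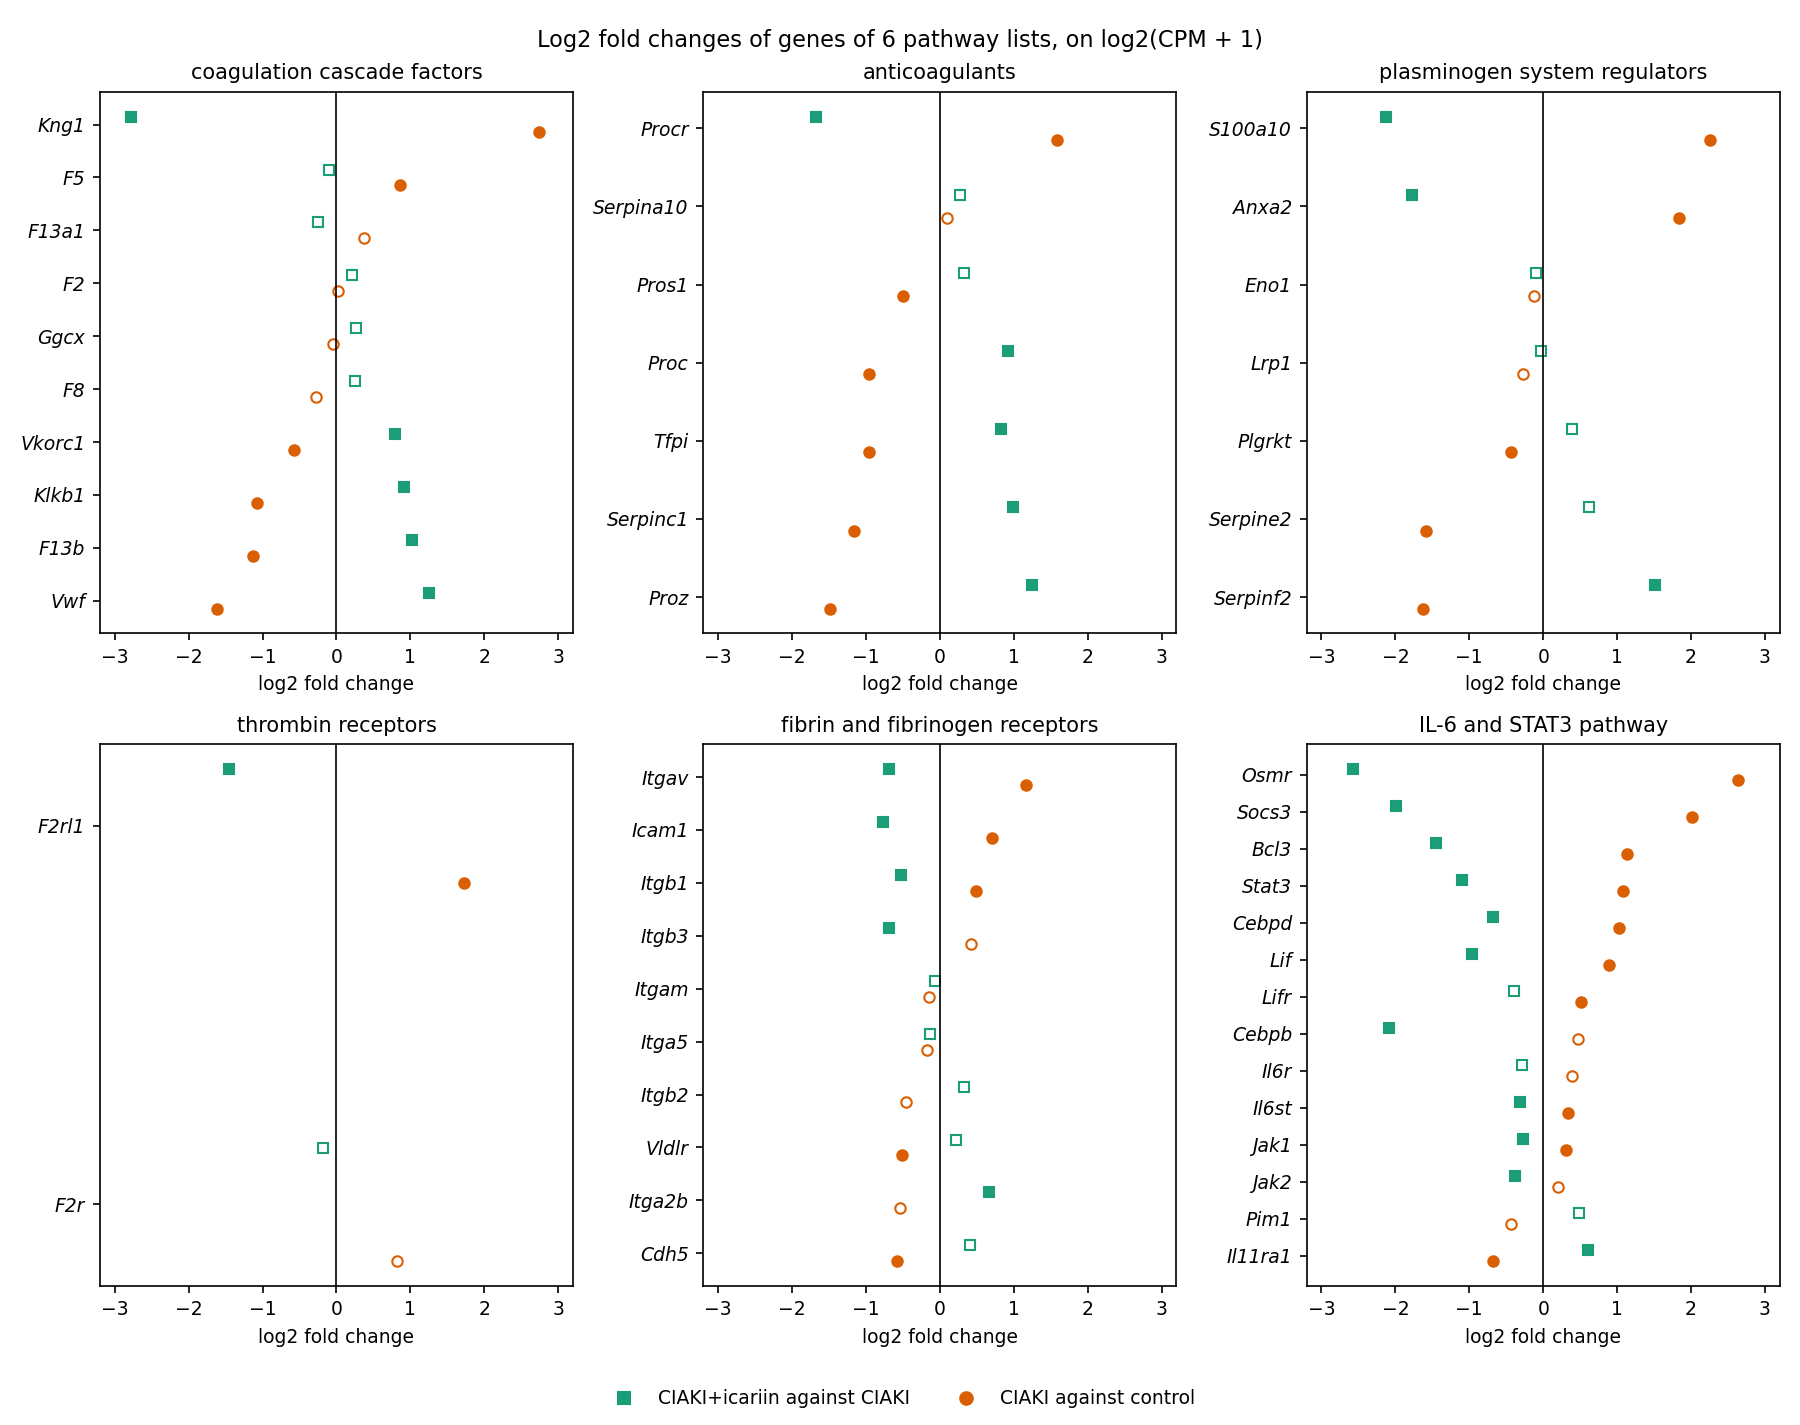
Log2 fold changes on log2(CPM + 1) of genes of 6 pathway lists, with squares for CIAKI+icariin against CIAKI and circles for CIAKI against control; filled symbols have an adjusted p below 0.05 by limma. The anticoagulant genes other than Procr and Serpina10 lie left of 0 in CIAKI against control, and 12 of the 14 genes of the interleukin 6 and STAT3 list lie right of 0.

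The features whose log2(CPM + 1) was most like that of each gene over the 9 libraries are given as a description, since all points share the same 9 libraries and group differences dominate them. For Fga they were B4galnt4, Lcn2 and Tmcc3 (Pearson r 0.995, 0.994 and 0.994), and for Fgg Tatdn2, Ptp4a1 and Plb1 (0.994, 0.992 and 0.992). Those most like Fgb included Ipo9 and Ccdc86 (0.997 and 0.995). For Plat they were Zfp335, Nsd3 and Acbd3 (0.988, 0.987 and 0.984), and for Plau Bcl2a1, Nckap5l and Gpr176 (0.973, 0.964 and 0.962). Plaur was most like Mfhas1, Phf13 and Efna1 (0.994, 0.984 and 0.983), F3 most like Crb3, Irak2 and Nab2 (0.958, 0.951 and 0.905), and Thbd most like Emp1, Klf4 and Zbtb34 (0.964, 0.958 and 0.938). B4galnt4 and Plb1, like Fgg, entered the test only through CIAKI. No chain of fibrinogen was among the 3 features most like another.

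The fibroblast and mural markers (8 listed, all tested) had 1 called higher and 3 lower in CIAKI against control and 1 called in each direction in CIAKI+icariin against CIAKI, with summed levels of 429 to 620 CPM in CIAKI+icariin, 498 to 603 CPM in CIAKI and 602 to 966 CPM in control kidneys.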

How the data were processed

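Kidneys were flash frozen, RNA was taken with Trizol and TruSeq libraries were prepared from total RNA, per the labels' protocols. The submitters' processing notes name Bowtie 0.12.2 and mm8, which is a mouse build although the identifiers are rat Ensembl genes. The counter, annotation and strand setting are not given in the sources used, so overlapping and antisense genes cannot be told apart. The main table was deposited by the authors in CPM for 9 libraries and 36267 features (22050 Ensembl and 14217 assembled genes). The authors also deposited read counts and FPKM for 3975 mRNAs they selected, in CIAKI+icariin and CIAKI libraries only, per the file headers. All CPM values were whole multiples of 1 read within 0.1 of a read (100% of values), and the reads so recovered equalled all 23850 deposited counts compared.

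The main test was limma 3.58.1 (R 4.3.3) with an intensity trend on log2(CPM + 1), run on the 16731 features that reached 1 CPM in 3 or more libraries. Group was the factor over all 9 libraries, tests were two-sided, and the Benjamini-Hochberg adjustment ran over all tested features. The series design gives 3 rats per group, so the spread is that between rats. The 21 alternatives were other pseudocounts (0.1 and 5), no filter or a mean of at least 5 CPM, Ensembl genes only, upper-quartile and quantile scaling, edgeR 4.0.16 and DESeq2 1.42.0 on the recovered reads, only the 2 groups compared, robust empirical Bayes, the replicate number as a block, and leaving out each of the 9 libraries.

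The 8 genes and the gene lists were chosen with earlier results of these data known. Besides the 8 genes, the text names up to 4 tested genes per pathway list with the smallest p in CIAKI against control, a short set always named (such as Plg, Il6 and Stat3) and the 3 features most like each gene. Pecam1, of that set, was not analysed here, and a few other genes and a motif under these rules are not reported here. Other list genes were named after their values were seen. Promoters from RefSeq (GRCr8) were held for 5 of the 8 genes, and both strands were searched.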

Additional observations from a re-analysis of the deposited data

How the results depend on the processing

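The calls of Fga, Fgb, Plat and Plau in CIAKI against control, and those of Fga, Fgb and Plat in CIAKI+icariin against CIAKI, kept their direction and their side of the threshold in all 21 alternatives (adjusted p at most 0.0458, for Plau). Fgg, which entered the test only through CIAKI, left it without any 1 CIAKI library and at a mean of at least 5 CPM, so its calls say nothing of stability. The number of the 8 genes called in CIAKI+icariin against CIAKI, 5 in the main test, was 3 at a mean of at least 5 CPM, where 6 of the 8 were tested, and 3 to 4 when a library was left out. In CIAKI against control it was 5, and 4 to 6 when a library was left out. In CIAKI+icariin against control the count stayed 0 in all alternatives.

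Over all features, CIAKI+icariin against control had 105 calls in the main test, 52 with no filter, where more features were tested, 523 with DESeq2 (the cause was not tested) and 30 to 130 when a library was left out, with fewer samples. Log2 fold changes that took both signs when a library was left out, none of them called, were those of Thbd in CIAKI against control (-0.179 without CIAKI 2 to 0.295 without CIAKI 3) and in CIAKI+icariin against CIAKI (-0.33 without CIAKI 3 to 0.143 without CIAKI 2), and of F3 in CIAKI+icariin against CIAKI (-0.584 without CIAKI 3 to 0.0643 without CIAKI 2). In CIAKI+icariin against control they were Plat (-0.100 without CIAKI+icariin 1 to 0.0955 without control 3, with 0.0714 without CIAKI+icariin 3), Plaur (-0.201 without CIAKI+icariin 1 to 0.0328 without CIAKI+icariin 3) and Thbd (-0.100 without control 1 to 0.0599 without control 3, with 0.0381 without CIAKI+icariin 3). The cause was not tested. Scaling moved the median of all tested features by less than 0.1 on the log2 scale.

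The groups share replicate numbers 1 to 3, but same-numbered libraries deviated together only weakly (correlations of -0.035 to 0.081), so the numbers were not taken as pairs. With the replicate block 6678 features were called in CIAKI against control (6903 without it), 6314 in CIAKI+icariin against CIAKI (6592 without it) and 73 in CIAKI+icariin against control (105 without it). Of the 8 genes the replicate block changed the call of Plaur in CIAKI against control (adjusted p = 0.0333 with it) and no other. Depth limits Fgg and Plaur, which had 5 to 21 and 49 to 86 reads in the libraries outside CIAKI.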
